A study of Mus musculus with 2 samples.

Results

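The genes described here encode 31 enzymes and membrane proteins of the lysosome, all 31 of which are listed among the 15526 genes of a single-cell table from mouse lung. They were chosen by name and not by a filter on their values, though with earlier results of these data known. The table comes from p16-FDR mice, a reporter strain on the C57BL/6 background. Its allele carries a FLP recombinase and a diphtheria toxin receptor (DTR) to which mCherry, a red fluorescent protein, is fused. At an age of 20 to 22 months, mCherry+ lung cells were sorted and profiled on the 10x Genomics Chromium 3' platform, and the labels give this as 1 group of 2 samples. The p16 protein, a product of Cdkn2a, blocks the cell cycle and is a common marker of senescent cells. No cells from the mCherry-negative gate and no young mice were analysed here, so every comparison is between cell classes within the sorted population.

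Lysosomes are acidic compartments in which cells digest proteins, glycans and lipids taken up from outside or delivered by autophagy. A proton pump acidifies them, heavily glycosylated membrane proteins line them, and soluble hydrolases such as the cathepsins do the digestion. Many of their genes carry a short E-box-like motif near the start site that is recognised by the transcription factor TFEB and its relatives. Lysosomal mass is known to increase in senescent cells, and the classic senescence stain, beta-galactosidase activity at raised pH, comes from the lysosomal enzyme encoded by Glb1. Macrophages, the digesting cells of the alveoli and of the lung interstitium, are known for high levels of these genes.

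The motif was looked for first, because it is shared by genes that behaved differently in these cells. Promoters from 250 bases before to 50 bases after the start, taken from RefSeq on GRCm38.p6, were found for 28 of the 31 genes. The letters TCACGTG, on either strand, were present in 7 of these 28 genes (25%) in 4.29% of the 27025 genes with a promoter in the same table and in 6.54% of the 11568 of these that the cell table lists. Among promoters rather than genes, the shares were 22.6% of 31 and 3.77% of 32851. A match describes letters only and is not a measured binding site. A run with the motif on both strands at once counts as 2 overlapping matches. The 4 windows that follow, each 60 bases long and written 5' to 3' on the gene's own strand with the motif in capitals, are shown because their genes were highest in 4 different cell classes.
Lamp1 at chr8:13159093-13159152, plus strand: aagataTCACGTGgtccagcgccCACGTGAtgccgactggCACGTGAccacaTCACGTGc
Glb1 at chr9:114401006-114401065, plus strand: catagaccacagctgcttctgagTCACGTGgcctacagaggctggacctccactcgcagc
Ctsd at chr7:142387890-142387949, minus strand: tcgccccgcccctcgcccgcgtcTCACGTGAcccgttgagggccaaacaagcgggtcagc
Lgmn at chr12:102439106-102439165, minus strand: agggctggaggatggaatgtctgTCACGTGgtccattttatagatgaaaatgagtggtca
The Lamp1 window held 4 copies of the motif. The single copies for Glb1 and Lgmn began 49 and 50 bases before the start site, and the pair on opposite strands for Ctsd began 99 bases before it. The other 3 genes with the motif were Atp6v1a, Ctsa and Gaa.

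Cells were assigned to classes by 4 markers each, none of which is among the 31 genes. Of 1344 cells, 1226 fell into 8 classes of at least 20 cells, which are endothelial-like (602 cells), fibroblast-like (166), T cell-like (147), C1q-high macrophage-like (139), B cell-like (81), Prg4 and Alox15 macrophage-like (39), alveolar macrophage-like (28) and plasma cell-like (24). They are given without "like" hereafter. Leading genes outside the gates included Pax5 in B cells and Lum and Scara5 in fibroblasts. Another 13 cells passed gates of several lineages and 73 passed none. The 2 libraries in the table, of 1145 and 199 cells, could not be matched to the 2 samples by name, so the table was treated as 1 sample and no test was run. They shared 0 cell barcodes, and the endothelial class was the only one of the 8 with more than 20 cells in library 2 (154 cells). Cells held 2517 to 49467 unique molecular identifiers (UMIs), counted tags of single RNA molecules, with class medians from 3676 in T cells to 30154 in plasma cells. No doublet caller was run.

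Levels are given as a rate, which is a gene's UMIs in a class divided by all UMIs of that class, times 10000, with an exact 95% Poisson interval. These intervals cover counting error only, and not the spread between cells or mice. A gene is called higher or lower in a class when its rate is at least 2-fold from the unweighted mean of the other 7 class rates. Because 3' tags depend on each gene's own end, levels are compared between cells and not between genes.

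Summed over all 31 genes, the macrophages carried the most lysosomal RNA. The summed rate was 248 in alveolar macrophages, 187 in C1q-high macrophages and 145 in Prg4 and Alox15 macrophages. Fibroblasts followed with 86.0 and endothelial cells with 62.4. B cells had 33.4, T cells 24.2 and plasma cells 16.4. In single cells the sum ran from 92.5 to 442 in C1q-high macrophages (median 184), with no cell as low as the endothelial median of 63.0. Endothelial cells ran from 14.2 to 128, so the upper endothelial cells overlapped the lower macrophages. Immunoglobulin genes made up 66.3% of plasma cell UMIs, which lowers the rate of every other gene there.

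**Figure D1:**
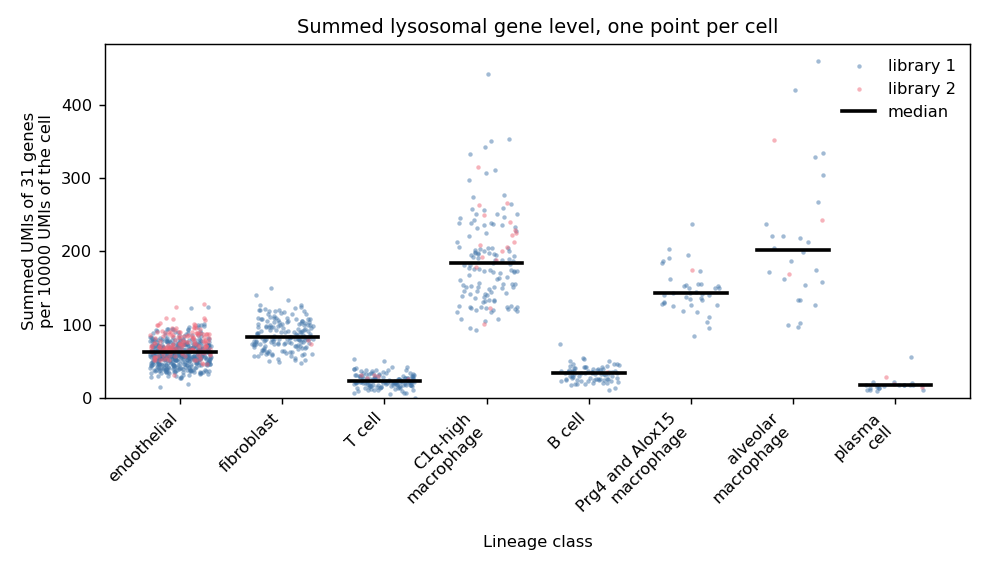
Summed UMIs of the 31 lysosomal genes per 10000 UMIs of the cell, 1 point per cell, by lineage class, coloured by library, with a bar at the class median. The 3 macrophage classes have medians of 143 to 201, above those of fibroblasts (83.2) and endothelial cells (63.0), and the lymphoid classes lie lowest.

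Single genes did not all follow the order of the sums, and the endothelial cells, the largest class of this sort, had few of them high. In endothelial cells 3 of 31 genes were called higher, where 29.5% of all 10248 genes tested were. Lower calls came to 19 of 31, against 17.8% of all genes. The median log2 fold of the 31 genes in endothelial cells was -1.32 and that of all genes 0.51. In C1q-high macrophages 13 genes were called higher (8.35% of all genes) and 1 lower (22.2%). Alveolar macrophages had 17 higher (13.0%) and 0 lower (30.2%), and Prg4 and Alox15 macrophages 7 higher (6.11%) and 2 lower (33.2%).

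Fibroblasts had 5 genes called higher, close to the 16.7% of all genes, and 12 called lower (20.3%). T cells had 0 higher (11.3%) and 28 lower (31%), and B cells 0 higher (9.71%) and 26 lower (34.3%). Plasma cells had 28 lower, but there 82.8% of all genes were called lower and 1.49% higher, so their count is close to the background. Counting by the class with the highest rate, 15 genes peaked in alveolar macrophages, 5 in C1q-high macrophages, 5 in Prg4 and Alox15 macrophages, 3 in endothelial cells and 3 in fibroblasts. In 18 of the 31 the interval of the highest class lay apart from that of the second.

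**Figure D2:**
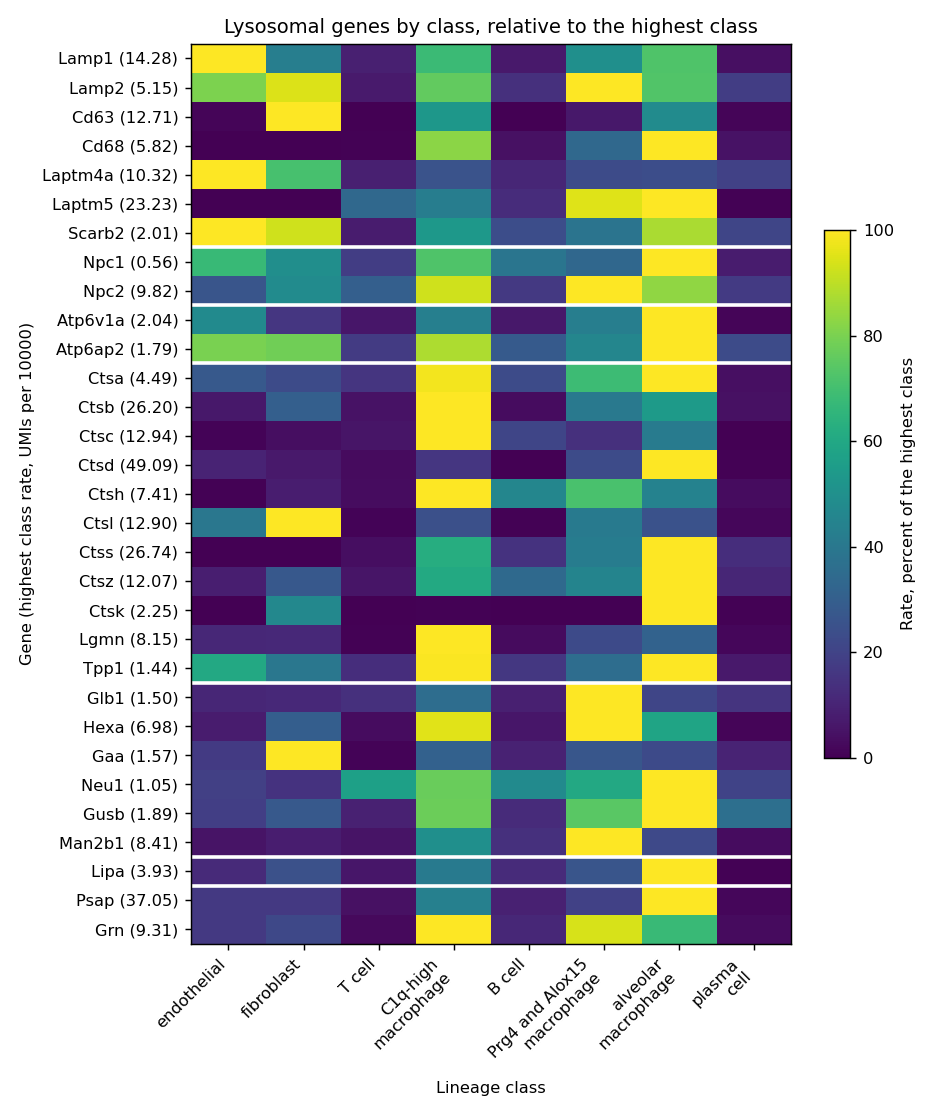
Rate of each of the 31 genes in each of 8 classes, as a percentage of that gene's highest class rate, which is given in parentheses in UMIs per 10000; white lines separate the roles, from membrane proteins at the top to cofactor precursors at the bottom. Lamp1, Laptm4a and Scarb2 are brightest in the endothelial column, and Cd63, Ctsl and Gaa in the fibroblast column.

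The membrane proteins divided between the classes. LAMP1, one of the most abundant glycoproteins of the lysosomal membrane, was highest in endothelial cells, with a Lamp1 rate of 14.3 (interval 13.9 to 14.7). Alveolar macrophages had 10.4 (9.20 to 11.6) and C1q-high macrophages 9.71. Lamp1 was at 13.4 in the endothelial cells of library 1 and 16.3 in those of library 2, so both stood above every other class. It was detected in 99.8% of endothelial cells. LAMP2, its relative and the receptor of chaperone-mediated autophagy, did not single out endothelial cells. The Lamp2 rate of 4.13 there was below the 5.15 of Prg4 and Alox15 macrophages and the 4.87 of fibroblasts, whose intervals overlapped.

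Laptm4a, which encodes a small membrane protein of late endosomes and lysosomes, was also highest in endothelial cells, at 10.3 (9.99 to 10.7). Fibroblasts had 7.33, and the macrophage classes had 2.35 to 2.62. Its relative Laptm5, known from blood cells, ran the other way, at 23.2 in alveolar macrophages and 22.1 in Prg4 and Alox15 macrophages but 0.0390 in endothelial cells. Scarb2, which encodes LIMP-2, the receptor that carries glucocerebrosidase to lysosomes, had 2.01 in endothelial cells and 1.87 in fibroblasts, with overlapping intervals. It was the least separated of the 3 endothelial-high genes, at 2.16-fold over the mean of the other classes. Lamp1 had 2.77 and Laptm4a 3.86. Without plasma cells, or without immunoglobulin genes in the totals, 2 genes rather than 3 were called higher in endothelial cells. Without alveolar macrophages 4 were.

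The tetraspanin gene Cd63 marked fibroblasts, at 12.7 (12.1 to 13.4), followed by C1q-high macrophages at 6.72. Endothelial cells had 0.153, which is 1.20% of the fibroblast rate, and only 2.99% of them held a Cd63 UMI. Cd68, the macrophage glycoprotein, was at 5.82 in alveolar macrophages, 4.81 in C1q-high macrophages and 0.0167 in endothelial cells. For Cd68, Laptm5 and Ctss the endothelial rates came to 0.347%, 0.397% and 0.150% of the C1q-high rates. The same ratio for the 8 macrophage markers computed ran from 0.0189% for C1qa to 0.437% for Lyz2, with 6 of them at or below 0.137% (Tyrobp). The Lyz2 ratio rests on 1 cell, which held 271 of 320 endothelial UMIs. Cd68 and Laptm5, from 6 and 14 UMIs, lay above most of these markers, and the part of free RNA in them was not tested. Glb1 and Lgmn, at 29.6% and 11.2%, lay above all 8 markers. These markers gauge RNA from macrophages only. Scgb1a1, an airway epithelial gene, was found in 47.3% of endothelial cells, at 2.37 in library 1 and 0.216 in library 2. The part of free RNA in Glb1 and Lgmn was not tested.

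The cholesterol-handling pair differed in contrast. Npc2, which encodes the soluble cholesterol carrier, had 9.82, 9.13 and 8.18 in the 3 macrophage classes, whose intervals overlapped, and 2.59 in endothelial cells. Npc1, which encodes the membrane transporter that receives its cholesterol, was sparse, with 258 UMIs over all classes. Its rates of 0.561 in alveolar macrophages, 0.407 in C1q-high macrophages and 0.378 in endothelial cells did not separate. The 2 proton pump genes also reached endothelial cells. Atp6v1a, a catalytic subunit of the pump, was at 2.04 in alveolar macrophages and next highest in endothelial cells at 0.971. Atp6ap2, an accessory subunit also called the prorenin receptor, had 1.79 in alveolar macrophages, 1.57 in C1q-high macrophages and 1.43 in endothelial cells. Lipa, which encodes the acid lipase that frees cholesterol and fatty acids, was highest in alveolar macrophages at 3.93 and had 0.476 in endothelial cells.

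Among the proteases, the cathepsins split into several patterns. Ctsd, the aspartic protease cathepsin D, had 49.1 in alveolar macrophages and 11.3 in Prg4 and Alox15 macrophages, the next class. Its alveolar rate fell to 42.5 without the cell that held most of its UMIs, and 82.1% of alveolar macrophages held the gene. In endothelial cells Ctsd had 4.90, with 4.76 in library 1 and 5.23 in library 2. Ctsb, a cysteine protease, was highest in C1q-high macrophages at 26.2, with 26.1 and 26.9 in the libraries. Alveolar macrophages had 14.3 and endothelial cells 1.72.

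Ctss, the cathepsin that trims the invariant chain for antigen presentation, had 26.7 in alveolar macrophages and 16.7 in C1q-high macrophages. Ctsc, which activates serine proteases of granules, and Ctsh were highest in C1q-high macrophages, at 12.9 and 7.41. Ctsl, another broad cysteine protease, was instead highest in fibroblasts at 12.9. Prg4 and Alox15 macrophages had a Ctsl rate of 5.29 and endothelial cells 5.13, both above the 3.16 of C1q-high macrophages. Ctsk, the collagen-cutting enzyme of osteoclasts, was confined to fewer cells. It had 2.25 in alveolar macrophages and 1.05 in fibroblasts, was detected in 50% and 41.0% of those cells, and gave 0 to 3 UMIs in each of the other 6 classes. Prg4 and Alox15 macrophages held 0 Ctsk UMIs, which allows a rate of up to 0.0705 (3 UMIs of their total).

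Lgmn, the asparagine-specific endopeptidase that processes cathepsins, had 8.15 (7.62 to 8.71) in C1q-high macrophages. Alveolar macrophages had 2.56, Prg4 and Alox15 macrophages 1.83, and fibroblasts and endothelial cells 0.933 and 0.915. Its level moved with the library in both classes that can be compared. In C1q-high macrophages Lgmn was at 6.85 in library 1 and 16.3 in library 2, and in endothelial cells at 0.554 and 1.77. The ratios of 2.38 (2.05 to 2.77) and 3.21 (2.56 to 4.02) had intervals well above 1. Laptm4a moved the same way, with ratios of 1.51 and 1.66. In endothelial cells 6 of 25 genes tested were higher in library 2 by a log2 ratio of at least 0.32, close to the 23.7% of all genes, and 1 was lower (20.9%). In C1q-high macrophages, of which library 2 had 17, the count was 11 of 29 (32.3%) higher and 1 lower (26.3%).

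The glycosidases that remove sugars from glycoproteins and glycolipids also separated. Man2b1, an alpha-mannosidase, was highest in Prg4 and Alox15 macrophages at 8.41 (7.56 to 9.33), with 4.20 in C1q-high macrophages and 0.442 in endothelial cells. Hexa, the alpha subunit of beta-hexosaminidase, had 6.98 and 6.65 in the same 2 macrophage classes, with overlapping intervals. Gaa, which degrades glycogen, was a fibroblast gene here, at 1.57 (1.35 to 1.82) against 0.490 in C1q-high macrophages. Neu1 and Gusb, the sialidase and the beta-glucuronidase, were highest in alveolar macrophages at 1.05 and 1.89 without standing apart from C1q-high macrophages. Psap and Grn, precursors of the saposins and granulins that assist the hydrolases, followed the macrophages, Psap with 37.1 in the alveolar and Grn with 9.31 in the C1q-high class. In endothelial cells they were at 6.11 and 1.54.

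Glb1, the source of senescence-associated beta-galactosidase, was low in most of this sorted population. It gave 244 UMIs in the 8 classes. Prg4 and Alox15 macrophages had 1.5 (1.16 to 1.92), and C1q-high macrophages had 0.536 (0.407 to 0.693), apart from it. Alveolar macrophages had 0.316 (0.144 to 0.599). The other classes, plasma cells at 0.226, T cells at 0.206, fibroblasts at 0.173, endothelial cells at 0.159 and B cells at 0.135, had intervals that overlapped each other and that of alveolar macrophages. The plasma cell rate is lowered by the 66.3% share of immunoglobulin UMIs, so its place in this order depends on that share. Endothelial cells had 57 Glb1 UMIs in 50 of 602 cells (8.31%, exact binomial interval 6.23 to 10.8), with a rate of 0.134 in library 1 and 0.216 in library 2. In Prg4 and Alox15 macrophages 26 of 39 cells (66.7%, 49.8 to 80.9) held a Glb1 UMI. These cells were deeper, with a median of 10578 UMIs against 5247. When each cell was thinned to 2500 UMIs, the shares were 29.4% and 3.60%, so the order did not turn. Leaving out the cell with most Glb1 UMIs gave 1.37 and 0.153.

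**Figure D3:**
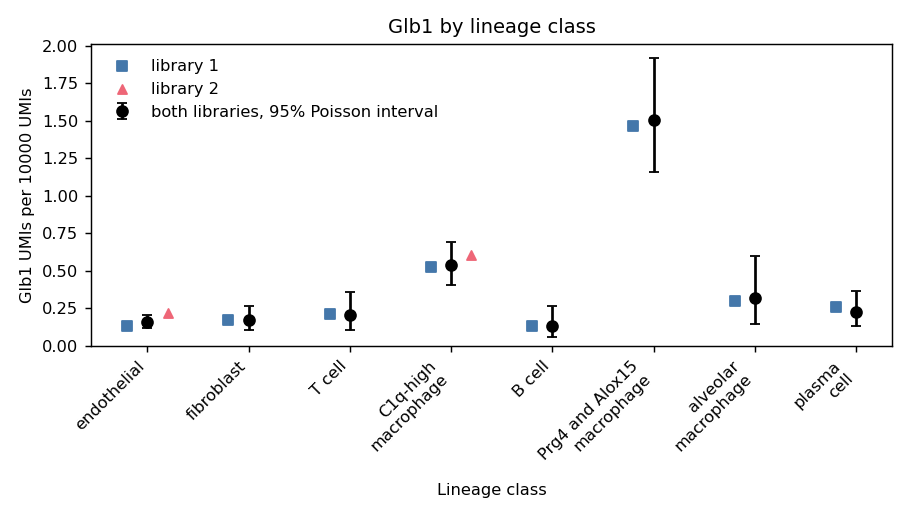
Glb1 UMIs per 10000 UMIs in each lineage class, for both libraries with a 95% Poisson interval (circles) and for each library where it has at least 17 cells of the class (squares and triangles). The Prg4 and Alox15 macrophages, at 1.5, stand above all other classes, and endothelial cells lie at 0.159. The plasma cell rate is lowered by immunoglobulin UMIs.

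Other lysosomal genes, listed separately (73 in the table, 69 tested), were called lower in endothelial cells about as often as genes in general. Of these 69, 7 were called higher there (29.5% of all genes) and 13, or 18.8%, lower (17.8% of all genes), with a median log2 fold of -0.27. The higher ones included Laptm4b (0.423, 3.36-fold), a relative of Laptm4a, Mcoln1 (0.323, 2.70-fold), the lysosomal calcium channel, and Lamtor5 (2.1, 2.38-fold) of the complex that recruits mTORC1 to lysosomes. Alveolar macrophages had 36 of the 69, or 52.2%, higher (13.0% of all genes) and 6, or 8.70%, lower (30.2%). C1q-high macrophages had 16, or 23.2%, higher (8.35%) and 8, or 11.6%, lower (22.2%). Prg4 and Alox15 macrophages had 5, or 7.25%, higher (6.11%) and 18, or 26.1%, lower (33.2%), near the background.

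The second comparison was within the endothelial cells. Of 611 cells past the endothelial gate, here with the 9 that also passed another gate, 332 held at least 1 Cdkn2a UMI and 279 held none. The gate was sharp, with 4 cells within 0.25 above its threshold and 3 within 0.25 below. Depth and library differed between the sets. Cells with Cdkn2a had a median of 5845 UMIs and the others 4655, and 118 of 154 gate cells in library 2 but 214 of 457 in library 1 held Cdkn2a. Detection of Cdkn2a depends on depth, so a cell without a UMI may still express the gene.

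The lysosomal genes differed little between the sets. The summed rate of the 31 genes was 66.1 in cells with Cdkn2a and 58.6 in cells without. Within library 1 it was 61.7 and 56.5, and within library 2 it was 72.5 and 73.5. Of 26 genes with at least 50 UMIs, 6 were higher with Cdkn2a by a log2 ratio of at least 0.32, the limit used for a call, or 23.1%, where 13.8% of all 7597 genes tested were. Another 2 were lower, or 7.69%, against 13.8% of all genes. The median log2 ratio was 0.13 and that of all genes 0.02. The ratio lay above 1 for 21 of the 26, but in both libraries for 9, below 1 in both for 2, and on different sides for 15.

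Scarb2 was 1 of the 9 genes that lay above 1 in both libraries. Its rate was 2.21 with Cdkn2a and 1.70 without, a ratio of 1.30 (1.11 to 1.51). The ratio was 1.39 in library 1 and 1.05 in library 2. Within the endothelial subdivisions given below, it was 1.17 (0.958 to 1.44) in Car4-high capillary cells, short of a call. General capillary cells had 1.41 (1.07 to 1.87) and larger vessel cells 1.29 (0.784 to 2.15). Across Cdkn2a levels, from none through cells below the median of the positive cells (3.02 Cdkn2a UMIs per 10000) to those at or above it, Scarb2 was at 1.70, 2.08 and 2.36. Ctsb had a ratio of 1.32 (1.13 to 1.55), but 103 of its 475 UMIs in the positive set lay in the 5 cells there that also passed another gate. Without such cells the ratio was 1.07. The same few cells carried 156 of 158 C1qa UMIs, 32 of 37 Ctss UMIs and 22 of 30 Laptm5 UMIs of the positive set.

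Lgmn was at 1.13 with Cdkn2a and 0.720 without, a ratio of 1.57, whose interval lay above 1. Within libraries it was 1.22 (0.887 to 1.67) and 1.02 (0.697 to 1.52), so most of the pooled difference moved with the library. Laptm4a behaved alike, with 1.20 pooled but 1.01 and 1.06 within libraries. Hexa had 1.29 pooled, 1.47 in library 1, 0.795 in library 2 and, below the limit of a call, 1.18 without cells of several gates. Neu1 had 1.32 (0.799 to 2.24) from 47 and 25 UMIs, with 1.35 in library 1 and 1.34 in library 2. Lamp1 was at 14.8 and 13.2, a ratio of 1.11 (1.05 to 1.18) that fell short of a call, with 1.05 and 1.09 within libraries.

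Glb1 had 40 UMIs in cells with Cdkn2a and 18 in cells without, at rates of 0.184 and 0.118. The ratio of 1.57 passed the call, but its interval of 0.877 to 2.90 held 1. It was 1.74 in library 1, from 35 UMIs, and 0.802 in library 2, from 23 UMIs. In library 2 only 36 endothelial cells were without Cdkn2a, so its ratio rests on few UMIs. A Glb1 UMI was found in 33 of 332 cells (9.94%) with Cdkn2a and in 18 of 279 (6.45%) without. After thinning to 2500 UMIs the shares were 3.96% and 3.10%. Higher and lower Cdkn2a-positive cells had 0.182 and 0.187, against 0.118 in cells with none. Over all endothelial cells a difference in Glb1 was not detectable at this depth.

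Cd63 and Gaa, the 2 genes called lower with Cdkn2a, are among the 3 that were highest in fibroblasts. Ctsl, the other one, had a ratio of 1.004 (0.915 to 1.10). Cd63 was at 0.143 with Cdkn2a and 0.354 without, a ratio of 0.404 (0.251 to 0.640). Library 1 alone gave a Cd63 ratio of 0.771, whose interval of 0.464 to 1.27 held 1. For library 2 the ratio was 0.0159 (0.000376 to 0.105), from 1 UMI with Cdkn2a and 14 without. Only 2 endothelial cells of library 2 held Cd63, so those 14 UMIs came from 1 cell. The low ratio there rests on that cell, and its interval covers counting error only. Leaving out the cell with most Cd63 UMIs gave a pooled ratio of 0.542. Of the 54 UMIs in the negative set, 17 lay in cells of several gates. The 4 fibroblast markers summed to 30 UMIs in the positive set and 162 in the negative set, and the 4 contractile markers to 14 and 637, of which 622 lay in 1 cell. Whether such RNA accounts for the Cd63 difference was not tested. Gaa had 0.776 (0.517 to 1.17), with 1.41 in library 2.

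**Figure D4:**
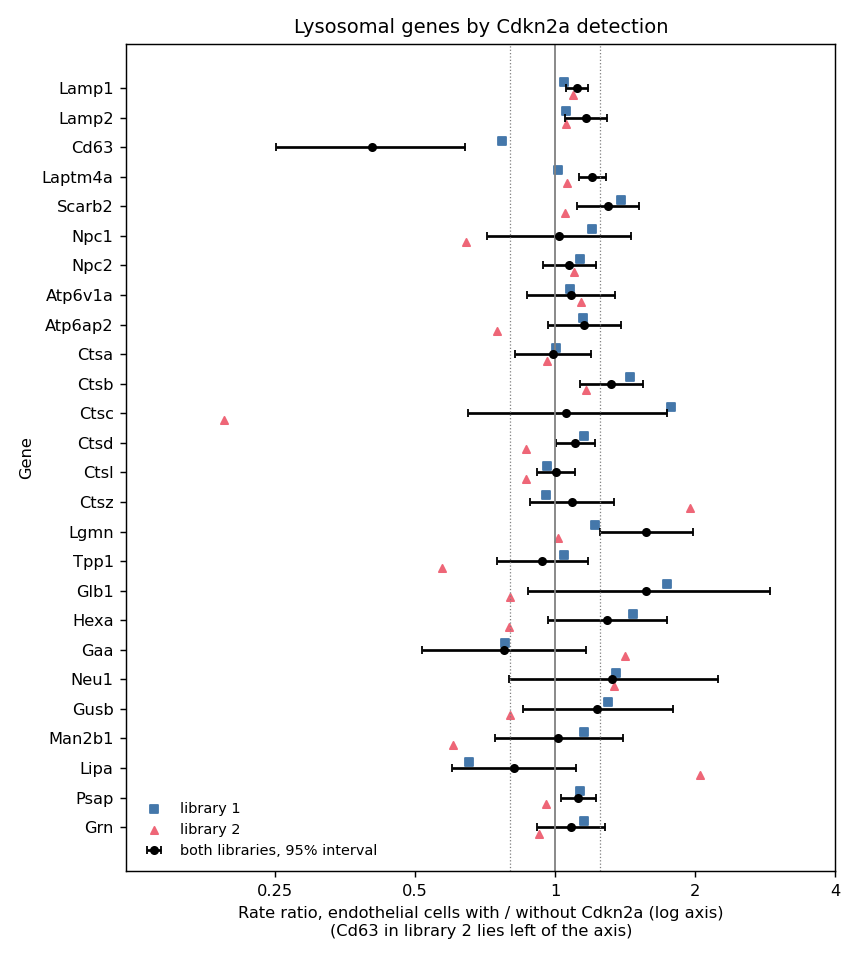
Ratio of the rate in endothelial cells with Cdkn2a to that in cells without (log axis), for the 26 genes with at least 50 UMIs, with 95% intervals for both libraries and points for each library; dotted lines mark the limit of a call in either direction. Scarb2, at 1.30, lies right of 1 in both libraries. Glb1, at 1.57 pooled with an interval across 1, lies left of 1 in library 2 (0.802, from 23 UMIs).

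For reference, 2 other inhibitors of the cell cycle moved with Cdkn2a in these cells, Cdkn2b with a ratio of 1.65 and Cdkn1a with 1.46, and the mCherry transcript had 2.39, though 3.56 in library 1 and 0.668 in library 2. Of the other lysosomal genes, 52 could be tested, of which 12 were higher (13.8% of all genes) and 3 lower (13.8%), with a median log2 ratio of 0.08. Lamtor3, of the same complex as Lamtor5, had a ratio of 1.59 (1.23 to 2.08), with 1.27 and 1.75 in the libraries. Asah1, the acid ceramidase, had 1.56 (1.29 to 1.89), with 1.09 and 1.41. Gpnmb, a membrane glycoprotein, had 1.46 (1.1 to 1.95), with 1.37 and 1.4, so these 3 genes lay above 1 in both libraries.

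The capillary subdivision of the endothelial cells also divided the lysosomal genes. Cells were divided by 4 markers each into Car4-high capillary (390 cells), general capillary (162) and larger vessel (59), none of them using the 31 genes. Each cell went to the subdivision with the highest mean of scaled marker values, without a minimum. Car4 was at 36.9 in Car4-high, 15.5 in general capillary and 13.7 in larger vessel cells. Gpihbp1, a general capillary marker, was at 1.09, 12.8 and 4.66, so the subdivisions differ by degree in these markers. Car4-high cells, known in lung as large capillary cells lining the gas-exchange surface, had a summed rate of 68.8, general capillary cells 53.7 and larger vessels 62.1. They also held Cdkn2a more often, in 61.8% of cells against 38.9% and 47.5%. The larger vessel values include all 9 endothelial cells of several gates, and values without them were not computed. Of 24 genes tested, 13 (54.2%) were higher by the same limit in Car4-high than in general capillary cells, where 24.2% of all 7283 genes were. Lipa was the 1 gene called lower (21.8% of all genes). The median log2 ratio was 0.35, and 0.03 for all genes.

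Both LAMP genes were higher in Car4-high cells. Lamp2 was at 4.95 against 2.94, a ratio of 1.68 (1.49 to 1.9), with 1.62 in library 1 and 1.54 in library 2. Lamp1 was at 15.9 against 12.1, a ratio of 1.32 (1.24 to 1.40), with 1.29 and 1.28. Ctsl and Ctsd had 1.47 (1.32 to 1.63) and 1.37 (1.23 to 1.53), and both lay above 1.3 in each library. Npc1 had 2.00 (1.31 to 3.14) from 95 and 29 UMIs. Ctsc went the other way, with 2 UMIs in Car4-high cells and 40 in general capillary cells. It was too sparse for a call.

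Of the 6 glycosidases, Neu1 was higher, at 1.79 (1.02 to 3.32), and the other 5 were not called. Hexa had 0.830 (0.610 to 1.13), Man2b1 0.905 (0.641 to 1.29), Gaa 0.867 (0.562 to 1.35), Gusb 0.847 and Glb1 0.832 (0.464 to 1.51), all with intervals that held 1. Within library 1, 10 of 22 genes were higher (24.8% of all genes) and 1 lower (22.3%), and within library 2, 7 of 18 (25.9%) and 1 (21.8%). Lgmn, 1.29 pooled, was 0.876 and 1.12 within the libraries. In the Car4-high cells alone the Glb1 ratio between cells with and without Cdkn2a was 1.05 (0.469 to 2.51). In general capillary cells it was 3.60 (1.28 to 12.5), from 17 and 5 UMIs, an interval above 1. There library 1 had 9 and 5 UMIs, a ratio of 2.56 (0.771 to 9.73), and library 2 had 8 and 0. Whether the ratio differs between subdivisions was not tested.

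**Figure D5:**
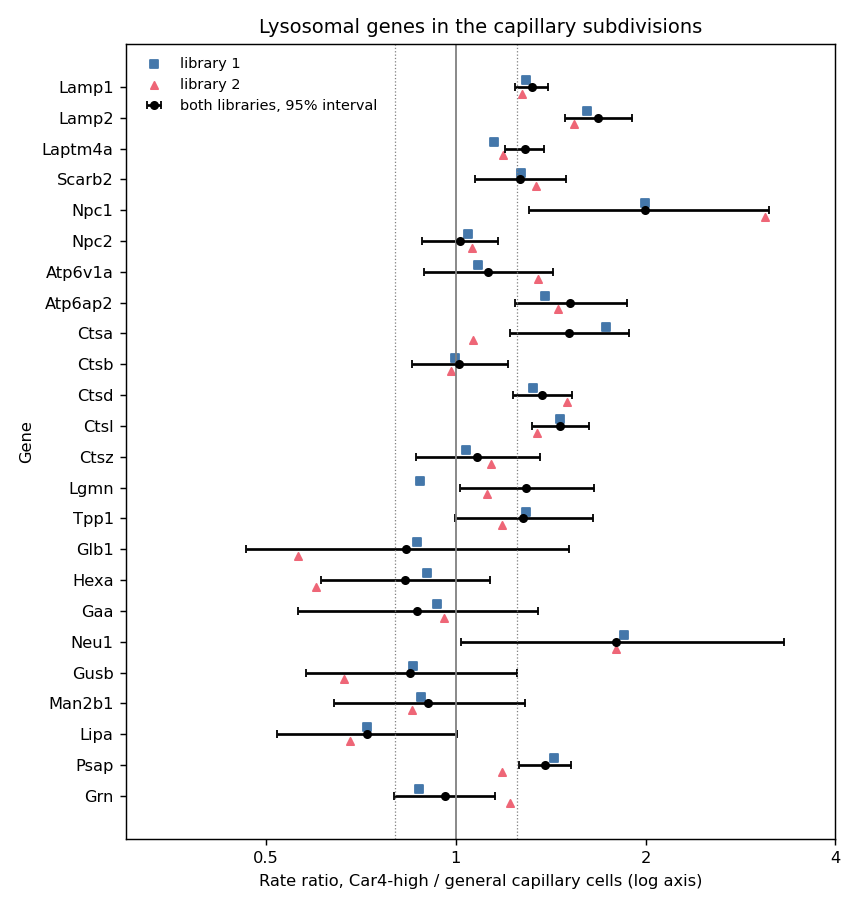
Ratio of the rate in Car4-high to that in general capillary cells (log axis) for the 24 genes with at least 50 UMIs, with 95% intervals for both libraries and points for each library; dotted lines mark the limit of a call in either direction. Lamp1, Lamp2, Ctsl and Ctsd lie right of 1 in both libraries, and Glb1, at 0.832, has an interval across 1.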

How the data were processed

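Lung cells were measured with 10x Genomics Chromium 3' version 3 chemistry after sorting, per the labels' protocols, and Cell Ranger 3.0.2 with mm10 is named in the submitters' processing notes. For the annotation, cell filters and doublet removal, no step is stated in these sources. The authors deposited natural log values of UMIs per 10000 plus 1, as the values show, since they back-transformed to a sum of 10000 in every cell. From these, whole UMIs were recovered, with a largest deviation of 1.78e-10 from whole numbers. No column of cells was left unused.

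Classes were set by the mean natural log value of 4 markers. Strong gates (endothelial, phagocyte, stromal, neutrophil) needed 2 and the others 1, and phagocytes were divided by their highest subset mean of at least 0.5. Cells of several gates were left out of classes but kept in the Cdkn2a comparison. Genes with at least 50 UMIs over a comparison were computed, with exact Poisson, Clopper-Pearson and conditional binomial intervals (scipy 1.17.1, numpy 2.4.6). For shares of cells, UMIs were thinned by expectation to 2500 per cell, near the 2517 of the shallowest cell. For the thinned Cdkn2a ratios, 1 random draw of 2500 UMIs was taken from each endothelial cell. Cells with and without Cdkn2a were set anew from that draw. The matrix is 1 sample, so no p-value is given. The Cdkn2a ratio and its interval were tested on simulated Poisson counts, which carry no spread between cells. The gates and class folds were not simulated. All 31 genes could be named, and up to 6 of the other list in each direction, of which some are not reported here. The genes, lists and comparisons were chosen with earlier results of these data known. Library comparisons, capillary subdivision levels and Cdkn2a levels were computed after seeing the data. Promoters are from RefSeq.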

Additional observations from a re-analysis of the deposited data

How the results depend on the processing

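Of 223 recomputed counts and ratios, 199 kept their direction and stayed within 1.5 times the reported count or within the interval of the ratio. The Cdkn2a comparison was less stable than the classes. Between classes 163 met these limits and 9 did not. In the Cdkn2a comparison 36 met them, 13 moved beyond them and 2 reversed direction. Class counts with no gene called in either setting, such as those higher in T cells, also met them. The interval of the Glb1 ratio is wide, so the ratio of 1.05 after thinning met them too. Leaving out immunoglobulin genes, plasma cells or alveolar macrophages, binning by library and depth, dropping the top cell of each gene, and balancing libraries without cells of several gates were added after seeing the data.

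Between classes, a fold of 1.5 gave 21 genes higher in C1q-high macrophages, 11 higher and 5 lower in Prg4 and Alox15 macrophages and 1 lower in alveolar macrophages. A gene minimum of 200 UMIs gave 0 lower in C1q-high and 1 lower in Prg4 and Alox15 macrophages. Without immunoglobulin genes in the totals 1 gene was higher in plasma cells and 2 in endothelial cells. Leaving out plasma cells also gave 2 higher in endothelial cells. Without alveolar macrophages 21 genes were higher in C1q-high macrophages, 14 in Prg4 and Alox15 macrophages and 4 in endothelial cells. Library 2 alone could not be computed for the classes, since it held too few cells of the others.

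In the Cdkn2a comparison, library 2 alone gave 2 genes higher, 4 lower and a reversed Glb1 ratio of 0.802, from 23 UMIs. Lower calls came to 1 with stricter gates, in depth bins, balanced by library and subdivision, within Car4-high capillary and within larger vessel cells, where the Glb1 ratio was 0.820. Within general capillary cells 2 were higher and Glb1 had 3.60. A fold of 1.5 gave 2 higher and 1 lower, and a minimum of 200 UMIs gave 0 lower. With libraries balanced and cells of several gates left out 3 were higher. The causes were not tested. Across 13 settings the Scarb2 ratio ran from 1.05 to 1.39 and the Glb1 ratio from 0.802 to 1.74. Each reached the limit of a call in 11 of them, counted without the gene minimum. Glb1 was below that minimum in both libraries, with 35 UMIs in library 1 and 23 in library 2. With UMIs thinned to 2500 per cell, the Glb1 ratio was 1.05. The 13 settings include the main one but none within a single subdivision. No paired analysis was possible because there is 1 group. Depth limits the rarest genes, of which 5 were too sparse for the Cdkn2a comparison.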
